A study of Mus musculus with 12 samples.

Results

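Acute phase proteins are plasma proteins whose synthesis by the liver changes during inflammation. The 10 genes described here encode serum amyloid A proteins (Saa1, Saa2, Saa3, Saa4), orosomucoids (Orm1, Orm2, Orm3), haptoglobin (Hp), hemopexin (Hpx) and lipocalin 2 (Lcn2). They were chosen by gene symbol, and all 10 were measured, by 12 of the 22626 probe sets tested on the array. A gene was represented by its brightest probe set, which gave 12393 genes in all. Saa1 and Saa4 each had a pair of probe sets, and the other members had 1.

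Livers came from 6 male Pctp-/- mice (knockout, KO) and 6 male wild-type littermates (WT), all on an FVB background. Pctp encodes phosphatidylcholine transfer protein (PC-TP, or StarD2), which binds phosphatidylcholine and moves it between membranes. Mice of both genotypes ate 0.2% fenofibrate, a drug that activates the nuclear receptor PPARα, for 7 days from 8 weeks of age and were killed at 9 weeks. Untreated mice of either genotype were not analysed here, and every comparison sets KO against WT livers of drug-fed mice. Each of the 12 arrays was hybridised with RNA from 1 liver. The sources used here do not state which part of Pctp is disrupted, nor the health of the mice when the livers were taken.

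In the acute phase response, macrophages release IL-1, TNF and IL-6, and hepatocytes answer through NF-κB, STAT3 and the C/EBP transcription factors, with glucocorticoids as a co-stimulus. Saa1 and Saa2 are the main inducible serum amyloids of mouse liver and travel on HDL, Saa3 is also made by macrophages and fat, and Saa4 is produced without induction. Orosomucoids carry lipids and basic drugs, haptoglobin captures free hemoglobin, hemopexin captures heme, and lipocalin 2 binds bacterial siderophores. Ligands of PPARα are known to restrain the IL-6 arm of this response in liver.

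Array medians ran from 84.0 to 91.2 in the authors' intensity units, and correlations between arrays on the log2 scale from 0.985 to 0.994. The number of arrays limits the precision. Pctp checked the labels: its brighter probe set read 66.5 to 99.7 in KO livers and 2737 to 2954 in WT livers. The 5' to 3' ratio of the beta-actin control probe sets, a sign of RNA integrity, was higher in KO livers by 0.39 on the log2 scale (two-sided exact permutation p = 0.00216, the smallest that 6 against 6 arrays can give; 6 of 6 KO arrays above all WT arrays). It averaged -1.19 ± 0.0846 in KO livers and -1.58 ± 0.134 in WT livers (SD, n = 6 each), and its part in the results below was not tested.

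The 250 bases before an annotated start are given here for 6 members. These genes either moved together from liver to liver or are close relatives that did not. For Saa1, Saa3 and Orm3 that start lies inside the annotated gene, whose 5′ end is at 46743181, 46719615 and 63356069. Their windows therefore overlap the gene, and that of Saa3 lies wholly within it. Sequences are from RefSeq, build GRCm38.p6, 5′ to 3′ on the gene's strand. Of the 10 members, 8 had a sequence to match (Saa1, Saa2, Saa3, Saa4, Orm2, Orm3, Hpx and Lcn2). Capitals mark matches, on either strand, to a C/EBP pattern (TTGCNNAA) or an NF-κB pattern (GG and TTTCC with any 3 bases between them).
Saa1 (chr7:46742981-46743230, minus strand): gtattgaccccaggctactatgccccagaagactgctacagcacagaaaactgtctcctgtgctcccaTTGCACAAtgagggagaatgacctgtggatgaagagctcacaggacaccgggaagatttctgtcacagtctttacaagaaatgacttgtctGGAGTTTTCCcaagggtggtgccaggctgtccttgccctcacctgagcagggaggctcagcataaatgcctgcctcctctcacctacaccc
Saa2 (chr7:46751583-46751832, plus strand): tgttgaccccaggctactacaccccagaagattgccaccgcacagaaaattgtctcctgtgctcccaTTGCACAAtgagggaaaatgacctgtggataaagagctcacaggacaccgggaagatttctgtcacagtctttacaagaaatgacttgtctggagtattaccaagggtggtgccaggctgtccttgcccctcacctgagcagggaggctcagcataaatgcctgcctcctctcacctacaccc
Saa3 (chr7:46715677-46715926, minus strand): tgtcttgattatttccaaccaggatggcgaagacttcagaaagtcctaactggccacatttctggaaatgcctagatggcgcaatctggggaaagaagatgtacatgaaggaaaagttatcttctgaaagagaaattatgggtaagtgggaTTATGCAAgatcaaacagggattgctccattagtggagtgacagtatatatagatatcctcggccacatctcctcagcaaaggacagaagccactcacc
Orm2 (chr4:63362199-63362448, plus strand): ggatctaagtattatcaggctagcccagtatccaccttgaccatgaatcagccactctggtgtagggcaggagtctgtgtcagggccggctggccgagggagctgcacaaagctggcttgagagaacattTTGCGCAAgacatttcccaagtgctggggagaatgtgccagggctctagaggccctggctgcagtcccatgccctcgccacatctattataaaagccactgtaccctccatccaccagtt
Orm3 (chr4:63355908-63356157, plus strand): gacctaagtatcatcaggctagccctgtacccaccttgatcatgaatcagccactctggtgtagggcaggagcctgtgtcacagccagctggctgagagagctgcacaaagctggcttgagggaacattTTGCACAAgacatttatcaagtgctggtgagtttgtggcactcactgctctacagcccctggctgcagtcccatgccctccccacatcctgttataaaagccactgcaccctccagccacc
Lcn2 (chr2:32387740-32387989, minus strand): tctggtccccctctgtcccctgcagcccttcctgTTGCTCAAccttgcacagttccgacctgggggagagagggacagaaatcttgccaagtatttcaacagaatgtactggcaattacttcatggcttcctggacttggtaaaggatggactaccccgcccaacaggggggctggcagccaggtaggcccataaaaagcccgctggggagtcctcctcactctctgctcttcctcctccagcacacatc
The C/EBP pattern occurred in 8 of 8 member windows and in 9.56% of 32851 windows of that length across the genome. In Orm2 its match lay 120 to 113 bases before the start and read the same on both strands. The NF-κB pattern occurred in the window of Saa1 only, against 4.63% of all windows. A STAT pattern (TTCNNNGAA) and an IL-6 response pattern (CTGGGAA) occurred in 0 of the 8 windows, against 7.02% and 9.10% of all. In the member windows no match overlapped a match of another pattern. The C/EBP and NF-κB letters were settled after some of these windows had been read, so the shares describe them only, and a match is a run of letters, with no binding measured. The windows of Saa1 and Saa2 were 94.8% identical when aligned and those of Orm2 and Orm3 85.5%. Saa3, Saa4, Saa1 and Saa2 lie in that order on chromosome 7, and Orm1, Orm3 and Orm2 in that order on chromosome 4.

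**Figure D1:**
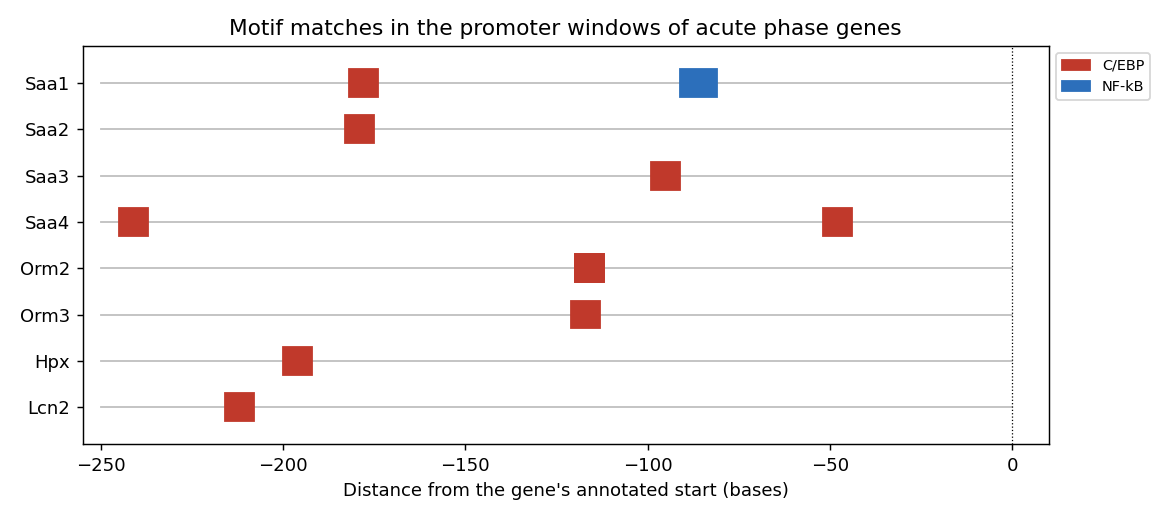
Matches to the searched patterns in the 250 bases before an annotated start of 8 acute phase genes. For Saa1, Saa3 and Orm3 that start lies inside the annotated gene. The x axis is the distance from the start in bases, each row is a gene, red boxes are C/EBP matches and the blue box is the NF-κB match. Every window holds at least 1 C/EBP match, and Saa1 alone holds the NF-κB one.

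Of the 10 genes, Orm1 and Orm3 fell in KO livers and 0 rose. At an adjusted p under 0.05, 11.7% of all genes were called, 6.46% as higher and 5.24% as lower (12% of all probe sets, 6.82% as higher and 5.15% as lower). A count of 2 in 10 genes stands near that background. All 8 other members missed the threshold, and their intervals ran from narrow ones for Hp and Hpx to wide ones for Saa1, Saa2 and Lcn2. The median difference was -0.01 over the 10 members and 0.01 over all genes, on the log2(intensity + 16) scale on which every difference below is given, as KO minus WT. The values of the genotypes overlapped for all 10 members. Of all genes 6.8% had no overlap, so 0 of 10 stands near that share. The authors' deposited table of 727 selected probe sets holds 0 of the 12 member probe sets.

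Saa1, by its brighter probe set, had a lowest, median and highest intensity of 298, 364 and 686 in KO livers and of 192, 258 and 1382 in WT livers. WT replicates 2 and 5, at 1382 and 1036, were the 2 highest of all 12 livers, and the other 4 WT livers, at 192 to 289.8, lay below every KO liver. The difference was 0.06 (SE 0.471, 95% interval -0.96 to 1.08, adjusted p = 0.957, limma). Its other probe set had 151.8, 199 and 391 in KO livers and 83.9, 117.9 and 821 in WT livers. That probe set gave 0.23 (95% interval -0.91 to 1.38, adjusted p = 0.832, limma), and both intervals include a change upward of 1, a doubling on this scale. The brighter probe set of Saa1 is annotated with a transcript that RefSeq now lists under Saa2, and its name, like that of the Saa2 probe set, marks probes that can match related transcripts. Saa1 and Saa2 signals can therefore not be fully told apart.

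Saa2 had a lowest, median and highest intensity of 140.1, 199.8 and 352 in KO livers and of 90.6, 126 and 731 in WT livers. As for Saa1, WT replicates 2 and 5 were highest, at 731 and 535, and the other WT livers, at 136 or less, lay below every KO liver. The difference was 0.10 (SE 0.483, 95% interval -0.95 to 1.14, adjusted p = 0.932, limma). Saa3 had 117.5, 154 and 189 in KO livers and 90.8, 103 and 241 in WT livers. WT replicate 2 was highest, WT replicate 5 at 173 fell among the KO livers, and the other 4 WT livers, at 90.8 to 109, were below all KO livers. The Saa3 difference was 0.23 (SE 0.216, 95% interval -0.24 to 0.69, adjusted p = 0.558, limma).

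Saa4, the member of the family that is made without induction, had 1419, 1571 and 1793 in KO livers and 1472, 1648 and 1821 in WT livers. The groups overlapped almost wholly, and WT replicates 2 and 5 did not stand out, at 1748 and 1635. The difference was -0.06 (SE 0.0712, 95% interval -0.22 to 0.09, adjusted p = 0.633, limma), and 0.16 by its dimmer probe set (adjusted p = 0.355, limma), so the signs of the pair disagree and neither passed.

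**Figure D2:**
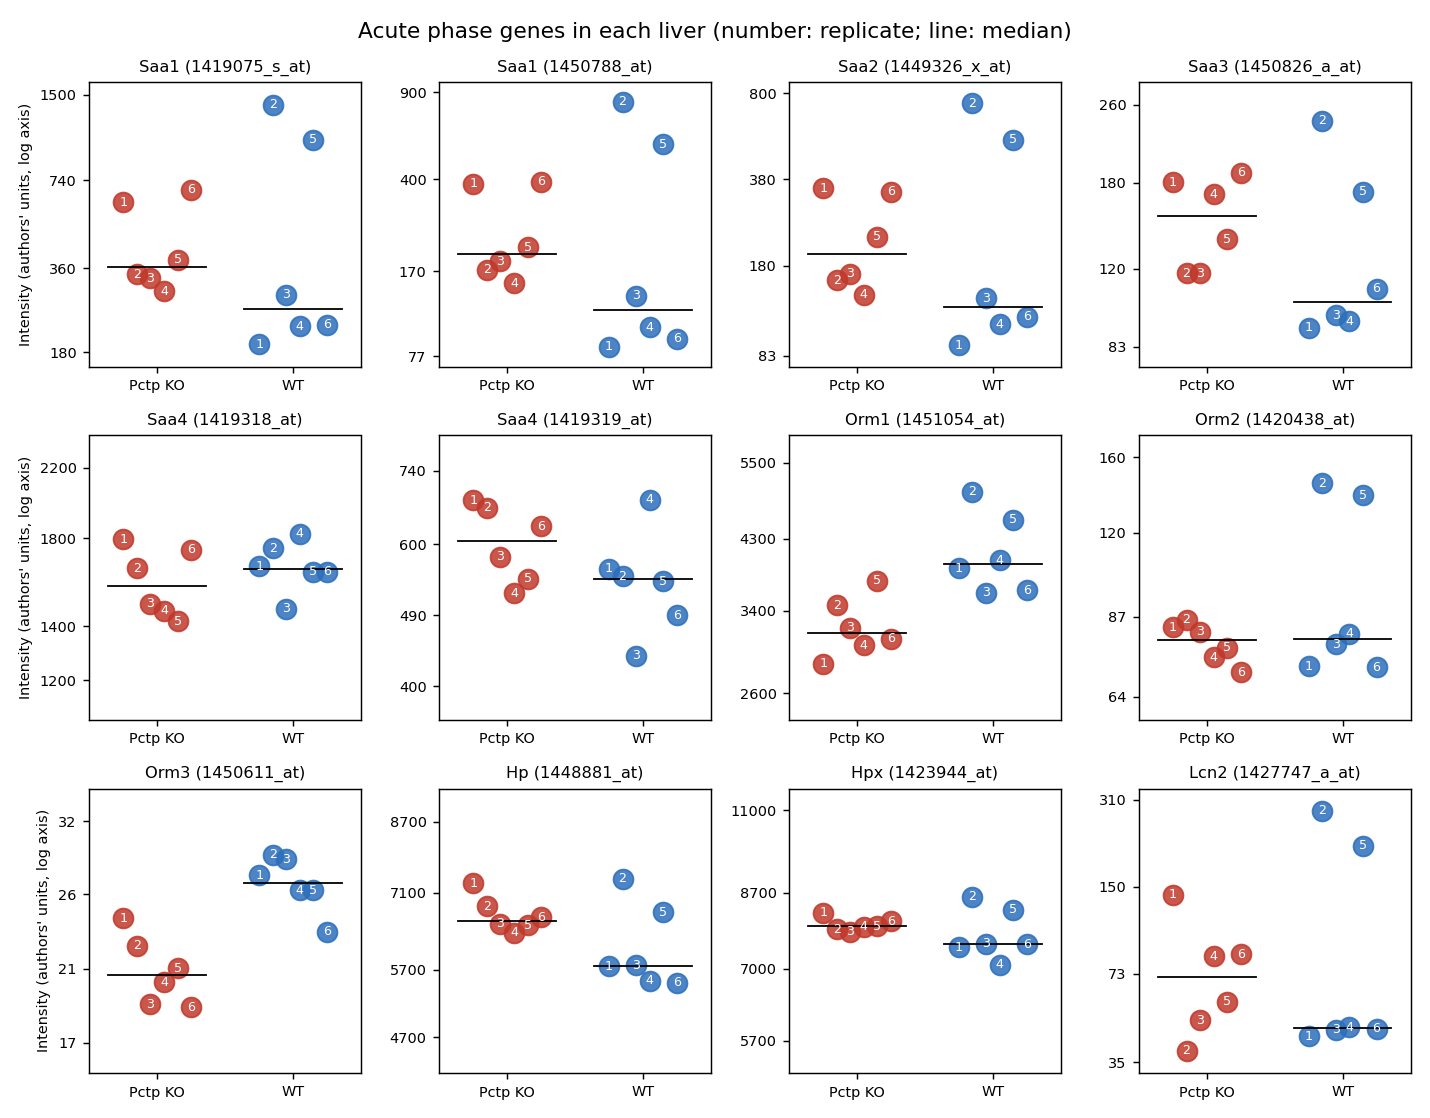
Intensity of each acute phase probe set in each liver, on log axes in the authors' units, with Pctp KO livers in red to the left of WT livers in blue. Numbers are replicates and lines are group medians. WT replicates 2 and 5 are the highest WT livers for Saa1, Saa2, Saa3, Orm1, Orm2, Hp, Hpx and Lcn2, and not for Saa4 or Orm3.

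Orm1 had a lowest, median and highest intensity of 2863, 3161 and 3749 in KO livers and of 3608, 3958 and 5010 in WT livers. KO replicate 5 was the KO liver that reached into the WT range. Orm1 fell by 0.34 (SE 0.0909, 95% interval -0.54 to -0.14, adjusted p = 0.0283, limma), or 1.27-fold, with means of 3239.7 ± 319 in KO livers and 4123 ± 558 in WT livers (SD, n = 6 each). The call was lost without KO replicate 1 (adjusted p = 0.0623), 3 (0.0506), 4 (0.0590) or 6 (0.0534), or without WT replicate 5 (0.0625), and the difference kept its sign in 21 of 21 alternatives.

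Orm2 had 70.3, 79.6 and 85.9 in KO livers and 71.7, 79.9 and 145 in WT livers. The medians nearly coincided, and WT replicates 2 and 5, at 145 and 138, stood above the other 10 livers. The difference was -0.21 (SE 0.155, 95% interval -0.55 to 0.12, adjusted p = 0.423, limma). Orm3 had 18.8, 20.6 and 24.3 in KO livers and 23.4, 26.9 and 29.1 in WT livers, a dim signal that 74.3% of all probe sets exceeded. KO replicate 1 was the KO liver above the lowest WT value. Orm3 fell by 0.21 (SE 0.0514, 95% interval -0.33 to -0.10, adjusted p = 0.0177, limma), or 1.16-fold on a scale that understates changes of dim genes. With a trended and robust variance model, which sets the spread of a probe set against others of like brightness, that call was lost (adjusted p = 0.105).

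Hp had a lowest, median and highest intensity of 6332, 6557 and 7297 in KO livers and of 5493, 5764 and 7386 in WT livers. Hp read 7386 and 6713 in WT replicates 2 and 5, while the other 4 WT livers, at 5493 to 5772, were below every KO liver. The difference was 0.13 (SE 0.0759, 95% interval -0.03 to 0.30, adjusted p = 0.289, limma). Hpx had 7787, 7900.4 and 8218 in KO livers and 7079, 7512 and 8603 in WT livers. Its KO livers lay within 1.06-fold of each other and its WT livers within 1.22-fold, with WT replicates 2 and 5 again highest at 8603 and 8281. The Hpx difference was 0.04 (SE 0.0518, 95% interval -0.07 to 0.15, adjusted p = 0.674, limma). Of all probe sets, 0.548% were brighter than that of Hp and 0.243% brighter than that of Hpx, so both were measured near the top of the array's range.

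Lcn2 had a lowest, median and highest intensity of 38.4, 71.0 and 141 in KO livers and of 43.4, 46.5 and 283 in WT livers. Its values were 283 and 212 in WT replicates 2 and 5, the other 4 WT livers lay between 43.4 and 46.8, and KO replicate 2 read lowest of all 12 livers and KO replicate 1 highest of the KO livers. The difference was -0.20 (SE 0.439, 95% interval -1.15 to 0.75, adjusted p = 0.824, limma).

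**Figure D3:**
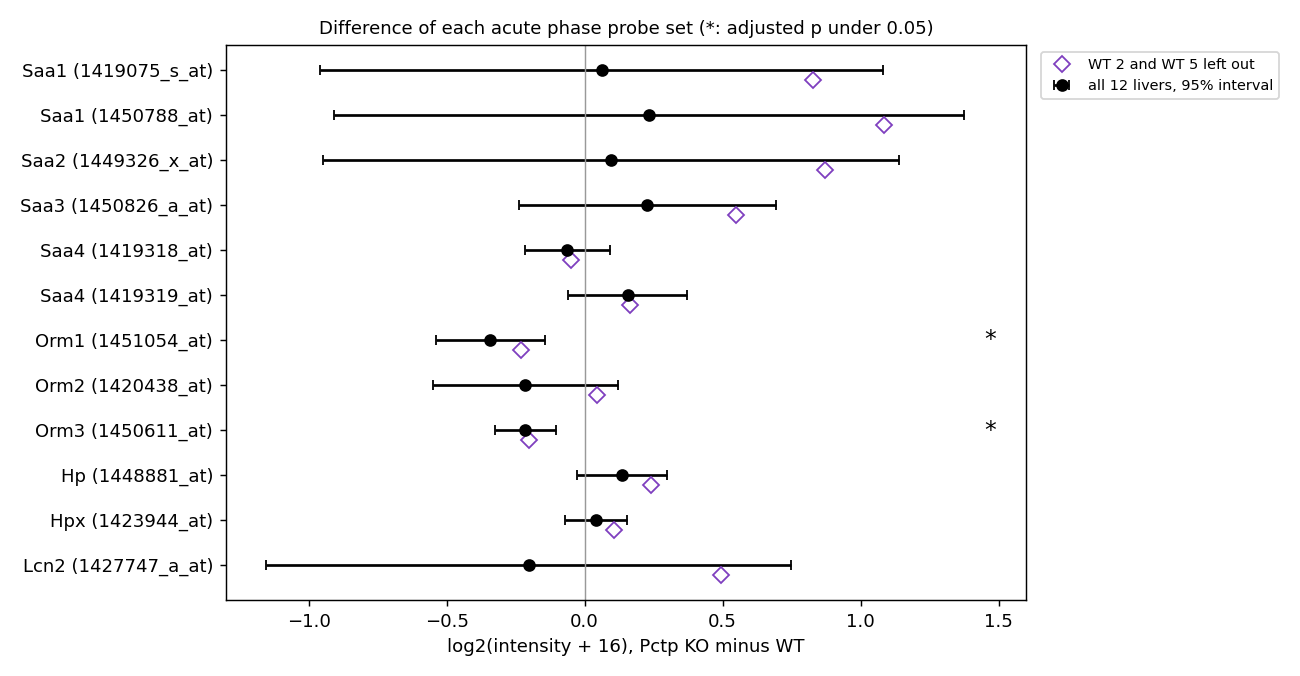
Difference of each acute phase probe set on the log2(intensity + 16) scale, Pctp KO minus WT, with its 95% interval from 12 livers (black). Open diamonds are the differences with WT 2 and WT 5 left out. Asterisks mark Orm1 and Orm3, the members past an adjusted p of 0.05.

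The members thus differed in how much they varied between livers of 1 genotype. Within WT livers the highest value was 7.18 times the lowest for Saa1, 8.07 times for Saa2 and 6.51 times for Lcn2. It was 2.02 times for Orm2 and 1.24 times for Saa4. Within KO livers the same ratios were 2.30, 2.51, 3.67, 1.22 and 1.26. The dimmer probe sets gave 9.79 (WT) and 2.57 (KO) for Saa1 and 1.56 (WT) and 1.30 (KO) for Saa4. On the log2 scale the SD of Saa2 among WT livers was 1.22, and 0.0707% of all probe sets had a higher one. Among KO livers it was 0.54, exceeded by 0.544% of probe sets, so Saa2 was among the most variable signals within each genotype.

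WT replicates 2 and 5 were the 2 highest WT livers for 8 of the 10 members, all but Saa4 and Orm3. For 12.1% of all genes the same 2 livers were the highest of the WT group. They were the 2 highest of all 12 livers for 6 members, Saa1, Saa2, Orm1, Orm2, Hpx and Lcn2. For that order no share over all genes was computed. KO replicates 1 and 6 were the 2 highest KO livers for 6 members, Saa1, Saa2, Saa3, Saa4, Hpx and Lcn2, as they were for 7.74% of all genes. With WT replicates 2 and 5 both left out, a setting chosen after seeing the data and on these very values, so that no p is given, the differences became 0.83 for Saa1 (1.09 by its dimmer probe set), 0.87 for Saa2, 0.55 for Saa3, 0.49 for Lcn2, 0.24 for Hp, 0.11 for Hpx and 0.05 for Orm2. Those of Orm1 and Orm3 were -0.23 and -0.20.

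Among KO livers Saa1 and Saa2 varied together (Pearson r = 0.97, two-sided exact permutation p = 0.00556, adjusted 0.0333; Spearman rho = 0.89, exact permutation p = 0.0333, adjusted 0.15; n = 6). Without KO replicates 1 and 6, r was 0.95. Both probe sets are annotated with the same transcript, so a high r was built in. The 2 signals cannot be fully told apart, and the test is not read as a result about 2 genes. Among KO livers none of the other 8 members passed. The adjustment was made over 18 relations, those of both genotypes together. Hpx came next (r = 0.82, exact permutation p = 0.0472, adjusted 0.0944, n = 6) and its r was 0.20 without KO replicates 1 and 6. In WT livers the values of Saa1 form separate sets of 2 and 4 livers, so no correlation is given for them.

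WT replicates 2 and 5, which were high for most members, were also high for markers of Kupffer cells, the resident macrophages of the liver. Of 10 measured Kupffer cell and macrophage markers, WT replicates 2 and 5 were the 2 highest WT livers for 10, beside 12.1% of all genes. They were the 2 highest of all 12 livers for 7, an order for which no share over all genes was computed. The summed intensity of the markers ran from 4279 to 5797 in KO livers and from 3301 to 7685 in WT livers. KO replicates 1 and 6, the highest KO livers for 6 members, had 5133 and 5797, and KO replicate 5 had 5382. The sums were 7685 and 7556 in WT replicates 2 and 5 and 3301 to 3941 in the other 4 WT livers, below every KO liver. The 5' to 3' ratio of beta-actin was -1.55 and -1.60 in WT replicates 2 and 5 and -1.77 to -1.41 in the other 4 WT livers. Its part in this order of livers was not tested. Clec4f, a lectin specific to Kupffer cells, read 403 to 568 in KO livers and 465 to 1002 in WT livers. For Clec4f, WT replicates 2 and 5 had 999 and 1002. The other 4 WT livers, at 465 to 526, lay within the KO range, unlike their sums. The scavenger receptor gene Marco read 76.5 to 156 in KO livers and 45.2 to 131 in WT livers, with WT replicates 2 and 5 at 131 and 127. Between genotypes 0 of the 10 markers passed the test of limma, and 1 had an unadjusted p under 0.05, upward. In a piece of liver, more cells of a type and more RNA per cell cannot be told apart, and the part of these cells in the values of the members was not tested.

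**Figure D4:**
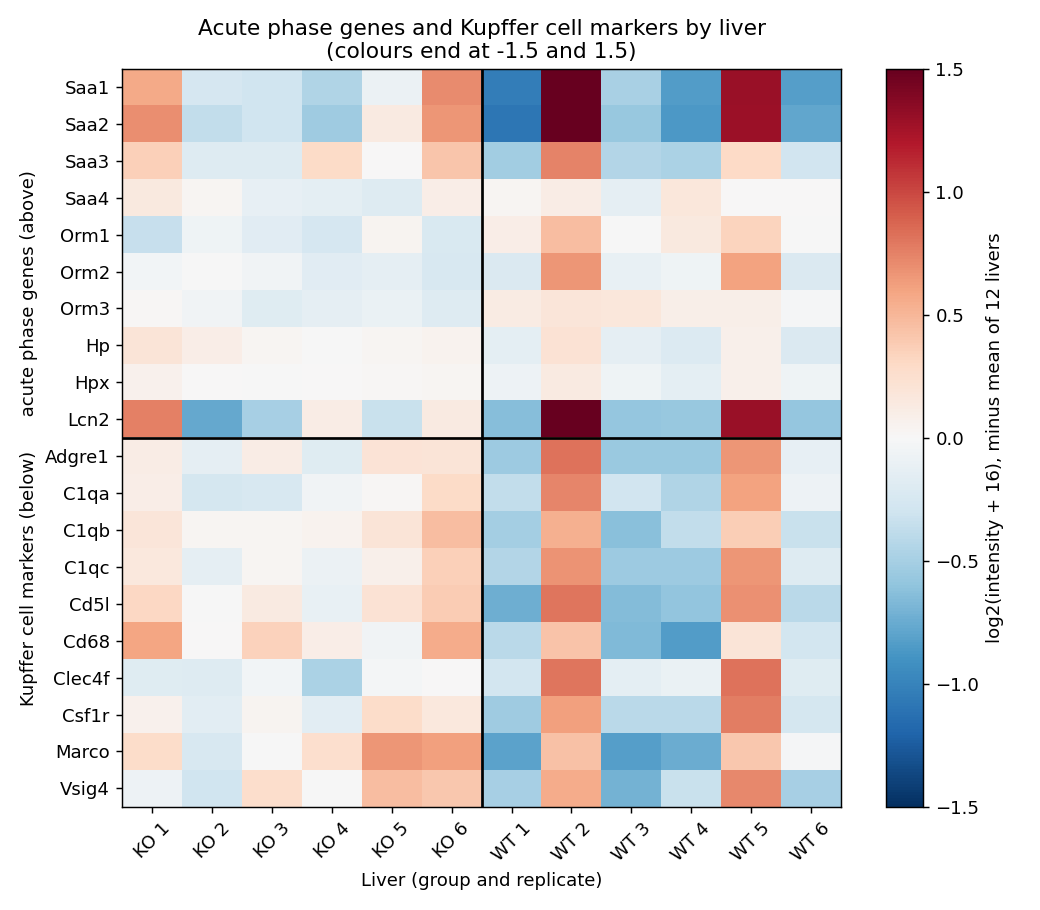
Acute phase genes (above the line) and Kupffer cell markers (below it) in each liver, KO livers left of WT livers. Colour is log2(intensity + 16) minus the gene's mean over the 12 livers. WT 2 and WT 5 are reddest for Saa1, Saa2 and Lcn2 and red for the Kupffer cell markers. Saa4, Orm3, Hp and Hpx stay pale in all livers, and the other 4 WT livers are blue for most rows.

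Markers of neutrophils, another source of Lcn2, and of hepatocytes were compared likewise. WT replicates 2 and 5 were the 2 highest WT livers for 2 of 9 neutrophil markers and for 2 of 7 hepatocyte markers. For the neutrophil markers the summed intensity ran from 522 to 565 in KO livers and from 539.6 to 593 in WT livers, with 593 and 589 in WT replicates 2 and 5. These sums were the 2 highest of all 12 livers. The 2 markers highest there were S100a8 and S100a9, the calprotectin subunits, singled out here for that order. S100a8 read 88.7 and 121 in WT replicates 2 and 5 and 74.5 to 87.4 in the other WT livers, and S100a9 read 60.2 and 84.0 in WT replicates 2 and 5 and 32.0 to 55.3 in the other WT livers. Of the granule genes, Camp was near 0 on all 12 arrays, between 1.0 and 2.4. Ngp read 170.4 to 212 in KO livers and 178 to 216 in WT livers. Other markers went the other way in WT replicate 5. It had the lowest WT value for Ngp (178), Elane (19.4), Ltf (48.7) and Cxcr2 (2.8). WT replicate 2 had the highest WT value for Ngp (216) and Elane (31.0). The part of neutrophils in the values of Lcn2 was not tested. For the hepatocyte markers, which define the labelled tissue and include Alb, the sums ran from 53807 to 55907 in KO livers and from 54205 to 57261 in WT livers. Neutrophil markers gave 0 calls with limma and 2 with an unadjusted p under 0.05, both downward, and of the hepatocyte markers Cps1 fell.

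The genes outside the list whose levels, centred within each genotype, ran most like those of Saa1 over 12 livers were Ctss, a lysosomal protease of macrophages (r = 0.98), C1ra, a complement protease (r = 0.97), Cd5l, a secreted macrophage protein (r = 0.96), Clec1b, a lectin receptor (r = 0.96), and Tyrobp, a signalling adaptor of myeloid cells (r = 0.95). They were picked as the highest of 4848 genes with a mean intensity of at least 200. The same coefficients were 0.93, 0.91, 0.88, 0.87 and 0.85 over 10 livers without WT replicates 2 and 5. The WT means used for centring still included those 2 livers, so these coefficients are not free of them. Ctss read 1069 to 1633 in KO livers and 607 to 1671 in WT livers, where WT replicates 2 and 5 were highest at 1671 and 1325. For Hp the most alike were Tpd52 (r = 0.98), Wdr1 (r = 0.93), the complement genes C6 (r = 0.93) and C1s1 (r = 0.92), and the lysosomal protease gene Lgmn (r = 0.92). Among the members themselves, the likeness to Saa1 on this measure was 0.99 for Saa2, 0.93 for Hpx, 0.93 for Lcn2, 0.91 for Hp, 0.91 for Saa3, 0.87 for Orm2, 0.58 for Orm1, 0.32 for Saa4 and 0.28 for Orm3. Without WT replicates 2 and 5, on that same centring, it was 0.98 for Saa2, 0.80 for Lcn2, 0.79 for Hpx and 0.79 for Saa3. It was 0.76 for Hp, 0.56 for Orm2, 0.38 for Saa4, 0.20 for Orm3 and 0.05 for Orm1. Among the 6 KO livers alone, r with Saa1 was -0.30 for Orm2 and -0.42 for Orm1 (exact permutation adjusted p = 0.591 and 0.52). The KO livers alone thus did not show the likeness of either gene.

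Of 19 further positive acute phase proteins, which include C-reactive protein and the fibrinogen gamma chain, 1 fell and 0 rose, with a median difference of -0.02. Over all genes 11.7% were called, so short lists such as this one and the next have counts near the background. The one that fell was the metallothionein gene Mt2, with 1060.2 ± 529 in KO livers and 2802 ± 868 in WT livers (SD, n = 6 each), 2.84-fold lower in KO livers (adjusted p = 0.0163, limma). The count was 2 without KO replicate 1 or WT replicate 1. Of these 19 genes, 4 had WT replicates 2 and 5 as the 2 highest WT livers. One of them was Itih4, an inter-alpha-trypsin inhibitor chain, at 3387 and 2850 in WT replicates 2 and 5 and 1650 to 2350 in the other WT livers, a gene singled out after its values were seen. Of 13 negative acute phase proteins, which inflammation lowers, Apom, an HDL apolipoprotein, fell 1.33-fold (adjusted p = 0.00216, limma) and the others, Alb and Ttr among them, did not pass. Their median difference was 0.00.

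Of 28 genes of cytokine signalling and of the transcription factors that drive acute phase genes, 4 rose and 4 fell, beside 6.46% higher and 5.24% lower of all genes. Cebpd, a C/EBP factor that cytokines and glucocorticoids induce, read 132 to 198 in KO livers and 213 to 272 in WT livers. The groups did not overlap, and Cebpd fell by 0.60 (SE 0.0921, adjusted p = 0.00209, limma). Cebpb, its relative that acts in the IL-6 response, averaged 1269 ± 161 in KO livers and 1671 ± 85.8 in WT livers (SD, n = 6 each) and fell 1.32-fold (adjusted p = 0.00663, limma). The glucocorticoid receptor gene Nr3c1 fell 1.17-fold (adjusted p = 0.0296, limma) and the IL-1 receptor kinase gene Irak1 1.19-fold (adjusted p = 0.0239, limma).

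Tlr4, the endotoxin receptor, read 59.8 to 77.6 in KO livers and 25.7 to 43.2 in WT livers and rose 1.53-fold without overlap (adjusted p = 0.00129, limma). Traf6, a ubiquitin ligase that carries IL-1 and Toll-like receptor signals, rose 1.41-fold (adjusted p = 0.0335, limma), Hnf4a, a hepatocyte transcription factor, 1.25-fold (adjusted p = 0.0192, limma), and the kinase gene Jak1 1.15-fold (adjusted p = 0.0461, limma). The count of 8 was 5 with WT replicates 2 and 5 left out, and 5 without KO replicate 5, WT replicate 4, WT replicate 5 or WT replicate 6. WT replicates 2 and 5 were the 2 highest WT livers for 5 of the 28 genes, Stat3, Tlr4, Ikbkb, Irak1 and Tnfrsf1a, beside 12.1% of all genes. Stat3 read 735 and 743 there and 605 to 728 in the other WT livers. Cebpd read 229 and 232 there and 213 to 272 in the other WT livers. For Socs3, a feedback inhibitor that STAT3 induces, the same livers had the lowest WT values, 104 and 111. Apart from Tlr4, Irak1 and Cebpd, the genes named for this order of livers were singled out after their values were seen.

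**Figure D5:**
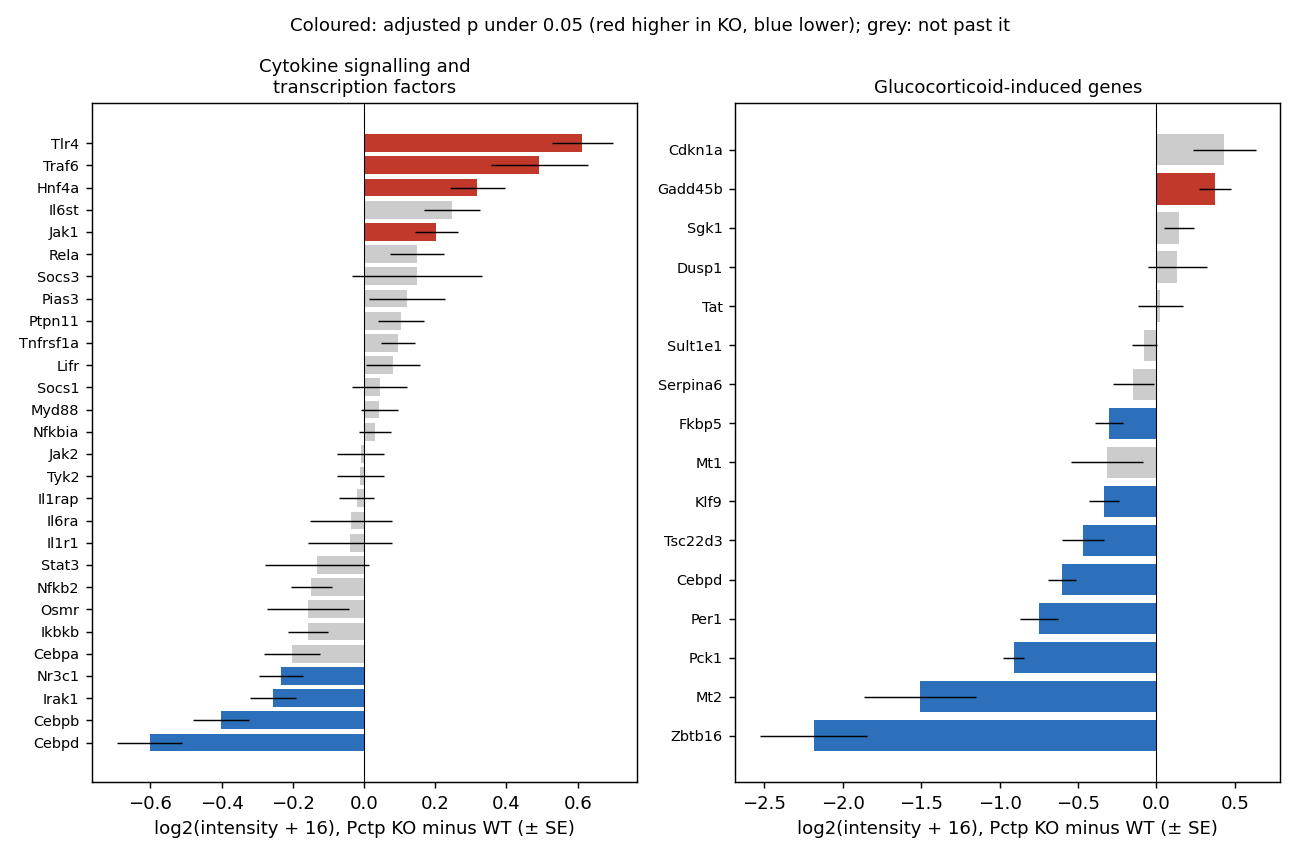
Differences on the log2(intensity + 16) scale, Pctp KO minus WT, with their SE, for the genes of cytokine signalling and transcription factors (left) and for glucocorticoid-induced genes (right). Red bars passed an adjusted p of 0.05 upward, blue bars downward, and grey bars did not pass. Cebpd and Cebpb are the lowest bars on the left, and blue bars outnumber the red one, Gadd45b, on the right.

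Of 16 genes that glucocorticoids, a co-stimulus of acute phase synthesis, are known to induce, 8 fell, 1 rose and 7 did not pass. Their median difference was -0.31, and of all genes 5.24% were lower and 6.46% higher. Zbtb16 fell by 2.18 by its brighter probe set (adjusted p = 0.00234, limma), Pck1 by 0.91 (adjusted p = 2.46e-05, limma), Per1 by 0.75 (adjusted p = 0.00289, limma) and Cebpd by 0.60 as given above. Gadd45b, a stress-response gene, rose by 0.37 (adjusted p = 0.0317, limma). Without KO replicate 6, WT replicate 2 or WT replicate 3 the list had 5 calls in place of 9. Tat, a classical glucocorticoid target singled out after its values were seen, averaged 3574 ± 506 in KO livers and 3554 ± 756 in WT livers (SD, n = 6 each) and did not pass. The list shares Mt1, Mt2, Cebpd and Serpina6 with the lists above, and several of its falls were known before it was drawn up.

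Of 17 receptors, scavengers and heme-handling genes that act on the member proteins, 1 rose and 1 fell, which is 11.8% of them beside 11.7% of all genes. Hmox1, which degrades the heme that hemopexin delivers, averaged 264 ± 32.3 in KO livers and 207 ± 28.9 in WT livers (SD, n = 6 each), 1.26-fold higher in KO livers (adjusted p = 0.0427, limma). Lrp1, the receptor for heme-hemopexin complexes, averaged 754 ± 61.6 in KO livers and 872 ± 32.0 in WT livers, 1.16-fold lower in KO livers (adjusted p = 0.0303, limma). The count of 2 was 0 without KO replicate 4, KO replicate 6, WT replicate 4 or WT replicate 6, and 1 without KO replicate 2, 3 or 5 or WT replicate 2 or 3. Of the receptors that missed the threshold, chosen for their ligands, Cd163, the macrophage receptor for haptoglobin-hemoglobin complexes, had 28.4 to 56.4 in KO livers and 25.7 to 126 in WT livers and did not pass (adjusted p = 0.442, limma). Slc22a17, a receptor for lipocalin 2, did not pass either (adjusted p = 0.968, limma) and averaged 86.9 ± 17.0 in KO livers and 85.3 ± 10.3 in WT livers (SD, n = 6 each).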

How the data were processed

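Liver RNA was labelled as biotinylated cRNA and hybridised to Affymetrix mouse arrays, per the labels' protocols. The authors deposited linear intensity values per probe set and array, and the sources used here do not state the program that made them. A second deposited table lists 727 probe sets that the authors selected, with a signed fold (a score, read here for membership only). Its intensities equal the first table's to within 0.005, and its 12 columns of detection calls were not used.

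Control probe sets (64) were left out and 22626 tested. Symbols came from the platform annotation, updated by gene ID through RefSeq (GRCm38.p6): 20380 probe sets had 1 symbol, 691 several and 1555 none. Values were log2(intensity + 16). KO minus WT was tested with limma 3.58.1 (lmFit, eBayes) in R 4.3.3, two-sided, Benjamini-Hochberg over all probe sets, threshold 0.05; the procedure was tested on simulated data. Folds are 2 to the power of the difference. Promoter windows were aligned with Biopython 1.88. Figures used matplotlib 3.10.9.

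The members, lists, motif letters and tests were chosen with earlier results of these data known. Named are all members, Pctp, list genes past the threshold (up to 4 a direction), the 5 genes most like Saa1 and Hp, defining cell type markers, and genes marked as singled out. Replicate numbers were not treated as pairs in the main test. Deviations of same-numbered livers correlated between -0.0780 and 0.0780, which cannot show how the mice were numbered. Alternatives were other added constants (1, 64), a mean intensity of at least 100, quantile normalization, median centring, other variance models, array weights, the replicate block, leaving out each array and gene means.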

Additional observations from a re-analysis of the deposited data

How the results depend on the processing

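Of the 12 member probe sets, 10 did not pass under any of the alternatives listed with the methods, and Orm1 passed in 16 of 21 and Orm3 in 19 of 20. The signs of Saa1 (brighter probe set) and Saa2 held in 15 of 21 alternatives each and that of Lcn2 in 18 of 20, with Saa1 between -0.14 and 0.41 without 1 array, Saa2 between -0.11 and 0.45, and Lcn2 between -0.37 and 0.12. The 2 member genes called became 1 with a mean intensity of at least 100, where Orm3 was not tested, and 1 with the trended and robust variance, and 1 to 2 without 1 array. Leaving out WT 2 and WT 5, which were picked for their high values of these genes, shifts the WT mean by construction, so calls of members in that setting are not read. The cause of these changes was not tested.

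All probe sets called numbered 2708, from 2006 to 2742 without 1 array. Of the calls on deposited values 57.0% were higher in KO livers. That share was 49.2% once arrays were quantile normalized and 43.5% once they were centred on their medians. With the replicate block they were 1906, the member genes called stayed at 2, and receptors and scavengers went to 0. For other positive acute phase proteins the count of 1 became 2 with the constant 64, median centring, the trended variance or gene means, and 4 with a mean intensity of at least 100 (1 to 2 without 1 array). For negative ones it became 2 with the trended variance or the unmoderated test (1 without any 1 array). For cytokine signalling 8 became 5 with WT 2 and WT 5 left out (5 to 9 without 1 array). For receptors and scavengers 2 became 1 with the constant 1, the unmoderated test or WT 2 and WT 5 left out (0 to 2 without 1 array). For glucocorticoid-induced genes 9 became 5 with the unmoderated test or gene means (5 to 8 without 1 array). The 5' to 3' ratio of Gapdh was higher in KO livers by 0.11 (two-sided exact permutation p = 0.00216), and the middle to 3' ratio by 0.042 (exact permutation adjusted p = 0.123). Among KO livers the correlations of Saa1 with Saa3, Saa4, Orm1, Orm2 and Lcn2 changed sign without KO replicates 1 and 6. Intensities carry no read depth, so dim members such as Orm3 are limited by signal over background.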

Other observations

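Summed intensities of the markers of the remaining cell types overlapped between the genotypes. Of 8 stellate cell and fibroblast markers Dcn and Reln rose, each without overlap, which is 25% of them beside 11.7% of all genes. The sums of these 8 ran from 2719 to 3308 in KO livers and from 2343 to 2944 in WT livers. WT replicates 2 and 5 had 2456 and 2660. For 8 endothelial markers they ran from 2362 to 2683 in KO livers and from 2267 to 2656 in WT livers, for 8 lymphocyte markers from 257 to 295 in KO livers and from 245 to 294 in WT livers, for 5 adipocyte markers from 11531 to 12364 in KO livers and from 11087 to 12252 in WT livers, and for 5 cholangiocyte markers from 117 to 154 in KO livers and from 95.4 to 149 in WT livers. In these 4 lists 0 genes passed the test of limma, and 3, 2, 2 and 0 had an unadjusted p under 0.05. Igf1, a growth hormone target on the list of negative acute phase proteins, read 12971 in KO replicate 6, against 2925 to 3360 in the other KO livers and 2901 to 3406 in WT livers.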
